A study of Mus musculus with 20 samples.

Results

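Cathepsins are the proteases of the lysosome, and 9 of their genes, Ctsa, Ctsb, Ctsc, Ctsd, Ctsf, Ctsh, Ctsk, Ctsl and Ctss, were followed in the brains of bulbectomised mice. The genes were taken by name from the 55487 gene entries of each library, matched through their Ensembl identifiers, and all 9 were found and passed the filter on low counts in every comparison. The libraries are of poly(A)-selected RNA from the hippocampus and the cortex of NMRI mice, an outbred stock, whose olfactory bulbs had been removed, a surgery used to model Alzheimer-type neurodegeneration. From day 14 after surgery the mice received recombinant human protein through the nose once a day for 21 days, either 6.4 µg of YB-1, a nucleic acid-binding cold shock protein, or 4 µg of HSP70, the stress-inducible chaperone. The 4 groups of 5 libraries are hippocampus with YB-1, hippocampus with HSP70, cortex with YB-1 and cortex with HSP70. All mice carried the same surgery, and animals without surgery or with vehicle were not analysed here, so each treatment is known only relative to the other.

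Cathepsins are made as inactive precursors, carried to the lysosome mostly by mannose 6-phosphate receptors, and activated there at acid pH. Most are cysteine proteases of the papain fold, cathepsin D is an aspartic protease and cathepsin A a serine carboxypeptidase. In the brain they clear proteins delivered by endocytosis and autophagy, and inherited loss of cathepsin D or cathepsin F causes neuronal ceroid lipofuscinosis in humans. Microglia, the resident macrophages, are known to be rich in several of them, among which cathepsin S trims the invariant chain from MHC class II molecules.

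The libraries held 6414215 to 15148078 reads assigned to genes. Every cortical YB-1 library (6414215 to 10763465 reads) was shallower than every cortical HSP70 library (12283392 to 15148078), so treatment and the making of the libraries cannot be told apart there. Bc1, a short neuronal noncoding RNA, took 3.92% to 20.8% of the reads of a library. The tissue labels fitted the regional markers: of 6 hippocampal markers 5 were called higher in the hippocampus than in the cortex under each treatment, and 5 of 6 cortical markers were called lower, with the other marker higher. Levels are given as CPM, reads scaled to a common library size, after TMM scaling, a correction for differences in RNA composition. In bulk tissue, fewer cells of a type and less RNA per cell cannot be told apart.

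The promoters below, 300 bases from RefSeq on GRCm38.p6, show the sequence ahead of the genes that varied most within groups and of genes that varied less. They run from 250 bases before to 50 bases after the start of the gene, 5′ to 3′ on the gene's strand. Capitals mark CACGTG, the E-box core that the lysosomal regulator TFEB is known to bind, GAAANNGAA, a repeat of the kind bound by interferon regulatory factors, and GAGGAA, the ETS core recognised by the myeloid factor PU.1. Each motif was searched on both strands, so that GAGGAA on the other strand reads TTCCTC, and no matches overlapped. Ctss (chr3:95526536-95526835, + strand) and Ctsc (chr7:88277835-88278134, + strand) are shown because their mRNAs varied most between libraries of a group.
Ctss: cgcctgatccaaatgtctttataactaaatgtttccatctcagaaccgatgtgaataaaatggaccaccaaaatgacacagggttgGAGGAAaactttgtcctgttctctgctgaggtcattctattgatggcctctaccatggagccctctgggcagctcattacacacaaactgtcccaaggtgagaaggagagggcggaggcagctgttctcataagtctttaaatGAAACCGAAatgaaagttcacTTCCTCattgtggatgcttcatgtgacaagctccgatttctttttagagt
Ctsc: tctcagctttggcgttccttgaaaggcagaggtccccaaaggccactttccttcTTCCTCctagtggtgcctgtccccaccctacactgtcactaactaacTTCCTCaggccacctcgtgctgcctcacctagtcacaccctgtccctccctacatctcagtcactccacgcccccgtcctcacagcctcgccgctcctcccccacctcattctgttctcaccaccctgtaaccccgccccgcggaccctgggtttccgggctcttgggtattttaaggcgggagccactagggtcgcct
Ctsd (chr7:142387778-142388077, - strand) and the second of the entries of Ctsa (chr2:164833523-164833822, + strand) are shown beside them as genes whose mRNA varied less.
Ctsd: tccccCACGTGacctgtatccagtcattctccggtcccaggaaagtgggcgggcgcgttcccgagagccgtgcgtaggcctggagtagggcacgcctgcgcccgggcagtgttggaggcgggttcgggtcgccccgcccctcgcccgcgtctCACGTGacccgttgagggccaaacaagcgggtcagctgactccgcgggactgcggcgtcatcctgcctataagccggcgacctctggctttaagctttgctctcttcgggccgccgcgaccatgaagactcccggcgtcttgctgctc
Ctsa: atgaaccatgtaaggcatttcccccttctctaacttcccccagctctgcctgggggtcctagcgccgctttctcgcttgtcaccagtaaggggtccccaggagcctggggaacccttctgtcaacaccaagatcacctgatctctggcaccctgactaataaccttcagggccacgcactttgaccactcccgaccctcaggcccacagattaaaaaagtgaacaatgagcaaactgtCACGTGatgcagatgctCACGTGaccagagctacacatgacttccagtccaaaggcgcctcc
CACGTG was present in 4 of the 8 promoter entries found, those of Ctsd, Ctsl and Ctsf and the second of Ctsa, against 7.15% of the 32851 mouse promoters in the same table. GAGGAA was present in 3, those of Ctss, Ctsc and Ctsk, against 28.28% of all promoters. GAAANNGAA was present only in that of Ctss, against 8.56% of all. Ctsb and Ctsh had no entry. With 8 entries, the shares of GAGGAA and GAAANNGAA are near those of all promoters. A match of letters is a description and shows no binding.

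Per length of transcript, Ctsd, Ctsb and Ctss were the most abundant cathepsin mRNAs. Over the 20 libraries the level per kilobase averaged 185.8 ± 29.5 CPM for Ctsd, 167.8 ± 21.1 for Ctsb and 144.9 ± 66.7 for Ctss (SD, n = 20). Ctsf followed with 57.9 ± 9.22, Ctsa with 42.1 ± 5.68 and Ctsl with 34.6 ± 4.95 CPM per kilobase, and Ctsh had 18.9 ± 4.86, Ctsc 8.29 ± 4.39 and Ctsk 2.07 ± 0.8. The order of the 3 leading genes was not fixed: Ctsd exceeded Ctsb in 15 of 20 libraries and Ctsb exceeded Ctss in 15 of 20. With the length of all annotated exons in place of the principal transcript, Ctss (144.6) stood above Ctsb (131.5) and Ctsa (32.6) above Ctsf (22.7). By the principal transcript, Ctsf exceeded Ctsa in 19 of 20 libraries, so the order of Ctsf and Ctsa depends on the length used. On that length Ctsa exceeded Ctsl in 17, while the steps from Ctsl to Ctsh, Ctsc and Ctsk held in all 20. Across libraries the ranges of neighbours in this order overlapped throughout. Not scaled for length, the 9 genes together made up 1415 to 2385 CPM, of which Ctsb gave a mean of 44.8%, Ctsd 22.3% and Ctss 10.7%. That sum was 1748 ± 174.8 CPM in YB-1 hippocampus, 1625 ± 219.8 in HSP70 hippocampus, 1927 ± 276.4 in YB-1 cortex and 1812 ± 208.5 in HSP70 cortex (SD, n = 5 each), and the groups overlapped.

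The genes differed widely in how far they varied between libraries. Over all groups Ctss spanned a 6.56-fold range, from 64.8 to 424.7 CPM, and Ctsc, whose product dipeptidyl peptidase I activates the granule proteases of immune cells, spanned a 5.67-fold range, from 9.2 to 52.2 CPM. Within a group the highest library stood 1.95 to 4.19 times above the lowest for Ctss and 2.19 to 5.36 times for Ctsc. The spread within groups was 0.68 on the log2 scale (SD over the groups) for Ctsc and 0.65 for Ctss, above 96.8% and 96.2% of the 10627 genes with a mean of at least 5 CPM, whose median was 0.3. At the other end, the spread was 0.15 for Ctsa and 0.16 for Ctsb, above only 4.51% and 6.14% of those genes. Ctsl (0.2), Ctsd (0.23), Ctsf (0.25) and Ctsh (0.37) lay between. Ctsk, the collagen-degrading cathepsin of osteoclasts, spread by 0.52 and spanned a 6.02-fold range over all groups, from 0.96 to 5.77 CPM. However, it was read by only 12 to 63 fragments a library, where counting error alone is large.

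**Figure D1:**
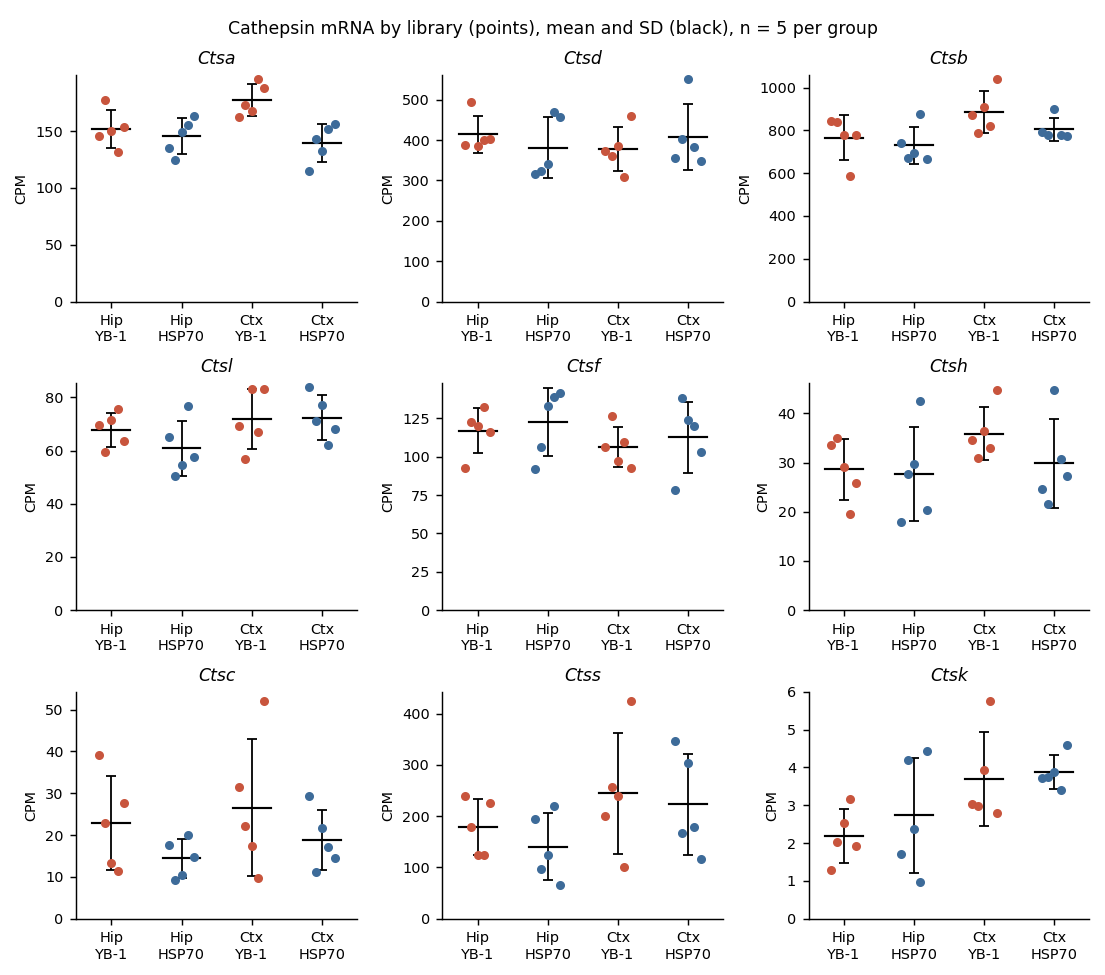
CPM (vertical axis, from 0) of each cathepsin gene in each library (points) by tissue and treatment, with group means and SD in black, n = 5 per group. Ctss spreads 1.95-fold to 4.19-fold and Ctsc 2.19-fold to 5.36-fold within the groups, Ctsa, Ctsb and Ctsd stay in a narrow band, and YB-1 and HSP70 libraries separate only for Ctsa in the cortex.

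The first question is whether the cathepsin genes differed between mice given YB-1 and mice given HSP70. In the hippocampus none passed the threshold of 0.05 (quasi-likelihood F-test of edgeR, p-values adjusted by Benjamini-Hochberg over 13723 genes, smallest adjusted p = 1), where the share of all genes called was 0%. Without adjustment 329 genes, 2.4% of those tested, had a p under 0.05, and 0 of the 9 cathepsins. Of the 9, 7 had a positive and 2 a negative log2 fold change with a median of 0.08, beside 49.3% positive and a median of -0.003 over all genes tested. In the cortex none passed either (14114 genes tested, 0% called, 4 genes with DESeq2 and 2 with limma-voom, none of them a cathepsin). There, 1 of 9 had an unadjusted p under 0.05 against 5.48% of all genes (774), and 6 were positive and 3 negative with a median of 0.16, beside 50.9% and 0.005 over all genes. The difference between the tissues in the treatment fold change did not pass for any of the 9 (interaction over 14616 genes, 0% called, 1.55% with an unadjusted p under 0.05, 0 of 9 cathepsins). These p-values measure the spread between libraries, since the labels do not name the animals.

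Ctsa encodes cathepsin A, the protective protein that stabilises lysosomal β-galactosidase and neuraminidase. Its cortical libraries had 162.2, 173.2, 167.7, 195.7 and 188.3 CPM with YB-1, against 114.8, 143.3, 132.5, 151.6 and 155.8 CPM with HSP70. Every YB-1 library was above every HSP70 library, a separation seen in either direction in 0.886% of genes in the cortex and 0.481% in the hippocampus. The log2 fold change was 0.37 ± 0.13 (SE, 95% interval 0.1 to 0.65), with an unadjusted p of 0.0102 and an adjusted p of 0.858 by edgeR, so the difference did not pass across all genes. Bc1 also differed in share between these groups, with a median of 8.71% in YB-1 cortex and 14% in HSP70 cortex. With treatment means removed, Ctsa rose with Bc1 (r = 0.685 in the cortex and 0.353 in the hippocampus, 10 libraries each). The part of Bc1 in the Ctsa difference was not tested. Without Bc1 and the immunoglobulin genes the Ctsa value was 0.37, and with all libraries thinned to the smallest 0.38. In the hippocampus Ctsa averaged 151.6 ± 16.9 CPM with YB-1 and 145.6 ± 15.6 with HSP70 (SD, n = 5 each), a log2 fold change of 0.07 ± 0.12. The difference between those folds was -0.31 ± 0.16 (unadjusted p = 0.0759, edgeR).

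Ctsd and Ctsb, the principal aspartic and cysteine endopeptidases of the lysosome, stayed within the spread of the libraries. Ctsd averaged 414.1 ± 45.1 CPM with YB-1 and 381.3 ± 75 with HSP70 in the hippocampus, and 377.2 ± 54.3 with YB-1 and 407.9 ± 82.4 with HSP70 in the cortex (SD, n = 5 each). Its log2 fold changes were 0.13 ± 0.14 and -0.09 ± 0.15 (SE), and the groups overlapped in both tissues. Ctsb averaged 765.1 ± 105.3 CPM with YB-1 and 729.5 ± 86 with HSP70 in the hippocampus. In the cortex it averaged 884.1 ± 97.4 with YB-1 and 804.6 ± 54.4 with HSP70. The Ctsb log2 fold change had a 95% interval of -0.18 to 0.34 in the hippocampus and -0.1 to 0.43 in the cortex.

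The other cysteine endopeptidases, cathepsin L and cathepsin F, and the aminopeptidase cathepsin H gave small values as well. Ctsl was 0.17 ± 0.13 in the hippocampus and 0.01 ± 0.14 in the cortex (log2 fold change ± SE), and Ctsf was -0.06 ± 0.14 and -0.05 ± 0.16. For Ctsh the hippocampal value was 0.06 ± 0.22. Its cortical libraries had 34.5, 30.8, 36.4, 33 and 44.8 CPM with YB-1, against 24.6, 21.6, 44.8, 30.8 and 27.2 CPM with HSP70. All but 1 of the HSP70 libraries were at or below the lowest of YB-1, and the log2 fold change of 0.3 ± 0.19 had an unadjusted p of 0.128 (edgeR).

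Ctsc and Ctss, the immune-cell cathepsins, had the highest hippocampal fold changes and the widest errors among the better-read genes. Hippocampal Ctsc was 39.1, 23, 13.2, 11.4 and 27.7 CPM with YB-1, against 17.6, 9.2, 10.5, 20.1 and 14.8 CPM with HSP70. The 3 highest values were YB-1 libraries and the other 2 YB-1 libraries lay inside the HSP70 range. The log2 fold change was 0.68 ± 0.32 (95% interval -0.004 to 1.36), with an unadjusted p of 0.0513 and an adjusted p of 1 by edgeR. With single libraries left out it ran from 0.4, without YB-1 replicate 1, to 0.84, without YB-1 replicate 4. In the cortex Ctsc was 31.4, 22.2, 17.4, 9.73 and 52.2 CPM with YB-1, against 29.4, 11.2, 21.8, 17.1 and 14.6 CPM with HSP70. The lowest and the highest cortical library were both YB-1, and the log2 fold change of 0.53 ± 0.39 did not pass (unadjusted p = 0.202). Without YB-1 replicate 5 it was 0.14.

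Hippocampal Ctss was 240, 179, 123.3, 123.5 and 226.2 CPM with YB-1, against 195, 97.2, 124.2, 219.6 and 64.8 CPM with HSP70. The groups overlapped over most of their range, and the log2 fold change was 0.36 ± 0.31 (unadjusted p = 0.269, edgeR). With single libraries left out it ran from 0.18, without HSP70 replicate 5, to 0.58, without HSP70 replicate 4. Cortical Ctss was 199.6, 257, 239, 101.5 and 424.7 CPM with YB-1, against 346.9, 166.2, 303.9, 179.1 and 116.8 CPM with HSP70. There the value was 0.16 ± 0.38, which was -0.13 without YB-1 replicate 5 and 0.38 without HSP70 replicate 1. A 95% interval of -0.69 to 1.01 shows how little this spread allows to be said. Ctsk, at 2.19 ± 0.71 CPM with YB-1 and 2.73 ± 1.52 with HSP70 in the hippocampus and 3.7 ± 1.24 with YB-1 and 3.88 ± 0.44 with HSP70 in the cortex (SD, n = 5 each), also overlapped between treatments.

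**Figure D2:**
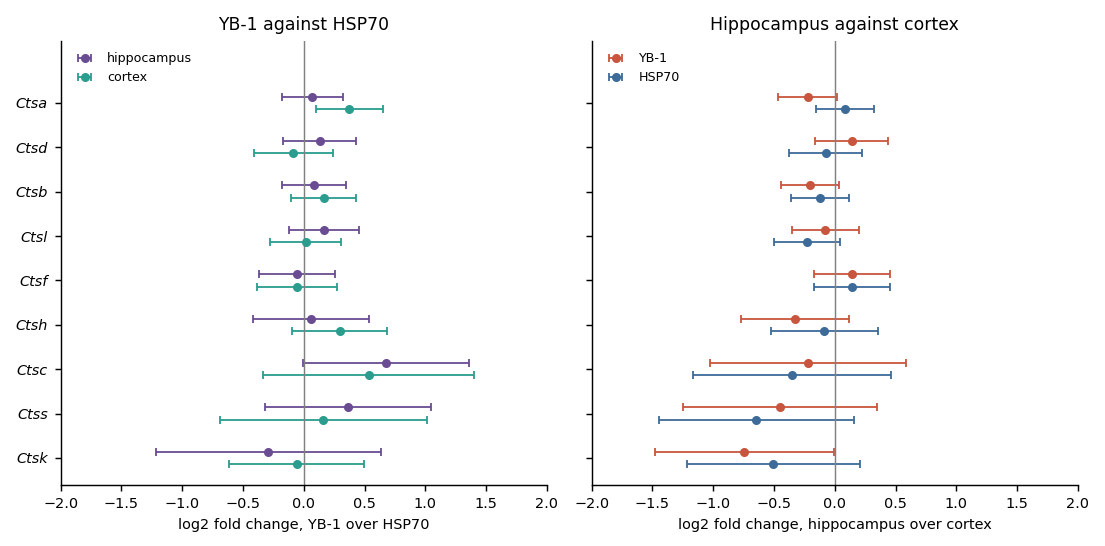
Log2 fold change of each cathepsin gene (points) with 95% intervals (bars) for YB-1 over HSP70 in each tissue (left) and for hippocampus over cortex under each treatment (right). Intervals are widest for Ctsc, Ctss and Ctsk, and none of the values passed after adjustment over all genes.

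The wider lysosomal pathway showed the same absence of called genes between treatments, and the lists named here are given by counts and medians beside those over all genes above. Of 28 lysosomal hydrolases, 14 were positive in the hippocampus (median log2 fold change -0.001) and 20 in the cortex (0.11), with 0 called in either tissue. Of 25 membrane and acidification genes, 13 were positive in the hippocampus (0.004) and 17 in the cortex (0.1). Among them the proton pump subunit Atp6v1e1 averaged 286.7 ± 31.2 CPM with YB-1 and 386 ± 56.9 with HSP70 in the cortex, a log2 fold change of -0.4 ± 0.14 (adjusted p = 0.858, edgeR). The 12 tested regulators of lysosomal genes, TFEB and the mTORC1 pathway among them, were positive in 3 cases in the hippocampus and 7 in the cortex. Rragc, a Rag GTPase that brings mTORC1 to the lysosome, stood at -0.3 ± 0.14 and -0.26 ± 0.16. Of 17 genes for sorting and activation of lysosomal enzymes, 6 were positive in the hippocampus (median -0.02) and 11 in the cortex (0.09), and Cln6, which helps export lysosomal enzymes from the endoplasmic reticulum, stood at 0.32 ± 0.16 and 0.27 ± 0.19.

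The lists that bear on cathepsin inhibition and antigen presentation also had no gene called. Of 6 tested cathepsin inhibitors 5 were positive in the hippocampus (median 0.23) and 4 in the cortex (0.11). Serpina3g, a serpin that inhibits cysteine cathepsins in mouse T cells, averaged 8.33 ± 3.74 CPM with YB-1 and 3.88 ± 1.07 with HSP70 in the hippocampus, and 12.3 ± 9.05 with YB-1 and 5.74 ± 2.59 with HSP70 in the cortex (SD, n = 5 each). Its log2 fold changes were 1.13 ± 0.32 and 1.14 ± 0.48 (SE), with adjusted p of 1 and 0.858 by edgeR. Of the 4 tested further cathepsins 3 were positive in each tissue, and Ctsz, a carboxypeptidase known from microglia, averaged 161.6 ± 31.2 CPM with YB-1 and 124.2 ± 26.2 with HSP70 in the hippocampus. Ctsw, a cathepsin of cytotoxic lymphocytes, averaged 4.62 ± 1.52 with YB-1 and 2.21 ± 0.69 CPM with HSP70 there. The 8 genes of the MHC class II pathway, in which cathepsin S acts, had 7 positive values in each tissue (medians 0.74 and 0.65), with H2-DMa, the peptide-loading chaperone, at 0.61 ± 0.25 in the hippocampus and 0.72 ± 0.25 in the cortex. Of the microglial markers, 14 of 15 were positive in the hippocampus (median 0.21) and 12 of 14 in the cortex (0.28), none called. The summed level of the 15 markers was 938.8 to 1915 CPM with YB-1 and 874.9 to 1620 with HSP70 in the hippocampus, and 1264 to 2526 with YB-1 and 1182 to 1707 with HSP70 in the cortex. All 15 markers averaged at least 1 CPM over the 20 libraries, and 14 of the 15 passed the filter on low counts in the cortex. Markers of blood leukocytes were positive in 3 of 3 tested in the hippocampus (median 0.63) and 5 of 5 in the cortex (0.58), and those of endothelium in 5 of 5 (0.25) and 4 of 5 (0.16). Markers of perivascular macrophages were negative in 2 of 2 tested in the hippocampus (median -1.13) and 3 of 3 in the cortex (-0.81). Those of meningeal fibroblasts were negative in 6 of 6 in the hippocampus (median -0.41) and 3 of 5 tested in the cortex (-0.0007). The part of these cell types in the cathepsin values was not tested.

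The second comparison sets the hippocampus against the cortex under each treatment. Of the 9 cathepsins 7 were lower and 2 higher in the hippocampus under either treatment, with median log2 fold changes of -0.22 under YB-1 and -0.12 under HSP70. None was called, against 6.51% of 14616 genes under YB-1 and 8.61% under HSP70, whose medians were 0.002 and 0.005. Without adjustment 1 of 9 had a p under 0.05 under YB-1 and 0 of 9 under HSP70, against 16.7% and 20.1% of all genes. With only 9 genes, shares near those backgrounds amount to very few genes, and nothing is read from these counts.

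Same-numbered libraries of the tissues deviated together, so they were also compared as pairs. Each pair was taken as a mouse and used as a block, though the labels do not state that it is one. Under HSP70, Ctss in mice 1 to 5 was 195, 97.2, 124.2, 219.6 and 64.8 CPM in the hippocampus, against 346.9, 166.2, 303.9, 179.1 and 116.8 CPM in the cortex. The hippocampus was lower in 4 of 5 pairs, at 0.409 to 0.585 of the cortical level, and higher in mouse 4, at 1.23 times. The log2 fold change was -0.65 ± 0.38 without pairing (adjusted p = 0.38) and -0.67 ± 0.21 with the mouse as a block (adjusted p = 0.0469, edgeR), the only cathepsin called between treatments or tissues in the fits over all libraries. Of all genes, 12.2% were called in that blocked fit under HSP70 and 8.37% under YB-1. Depth was split in the same way. Hippocampal HSP70 libraries 1, 2, 3 and 5 (7756835 to 9520638 assigned reads) were shallower than every cortical HSP70 library (12283392 to 15148078). Mouse 4, the pair that went the other way, had 13053910 reads in the hippocampus. Hippocampal Ctss followed the read total (r = 0.757, 10 libraries). The part of depth in the blocked call was not tested. The call was lost without HSP70 mouse 1 (log2 fold change -0.64 ± 0.24, adjusted p = 0.139), mouse 2 (-0.65 ± 0.26, 0.133), mouse 3 (-0.51 ± 0.22, 0.185) or mouse 5 (-0.64 ± 0.25, 0.155), with a larger SE each time. Without HSP70 mouse 4 the value was -0.91 ± 0.19 (adjusted p = 0.00316), and without YB-1 mouse 2 it was -0.67 ± 0.21 (0.0501). With YB-1, hippocampal Ctss was 240, 179, 123.3, 123.5 and 226.2 CPM against 199.6, 257, 239, 101.5 and 424.7 CPM in the cortex. It was lower in 3 of 5 pairs, and the value of -0.45 ± 0.38 (-0.37 ± 0.21 with the block, adjusted p = 0.381) did not pass. The treatments were not shown to differ in this respect (interaction 0.2 ± 0.54, or 0.3 ± 0.3 with the block).

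Ctsk was lower in the hippocampus in nearly every pair. With YB-1 it was 1.28, 2.03, 2.54, 3.18 and 1.93 CPM in the hippocampus against 3.04, 2.97, 3.93, 5.77 and 2.79 CPM in the cortex, lower in 5 of 5 pairs, at 0.421 to 0.689 of the cortical level. With HSP70 it was lower in 4 of 5, with 1.72, 4.19, 2.38, 0.96 and 4.43 CPM in the hippocampus against 3.73, 3.75, 3.89, 3.41 and 4.61 CPM in the cortex. The log2 fold changes were -0.74 ± 0.36 under YB-1 (unadjusted p = 0.0485, adjusted p = 0.294) and -0.51 ± 0.34 under HSP70 (adjusted p = 0.456, edgeR), so neither passed. Ctsb was lower in the hippocampus in 4 of 5 pairs under each treatment, with log2 fold changes of only -0.21 ± 0.12 under YB-1 and -0.12 ± 0.12 under HSP70. Ctsf was higher, at 0.14 ± 0.15 under each treatment, as was Ctsd under YB-1 (0.14 ± 0.15) but not under HSP70 (-0.07 ± 0.15).

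**Figure D3:**
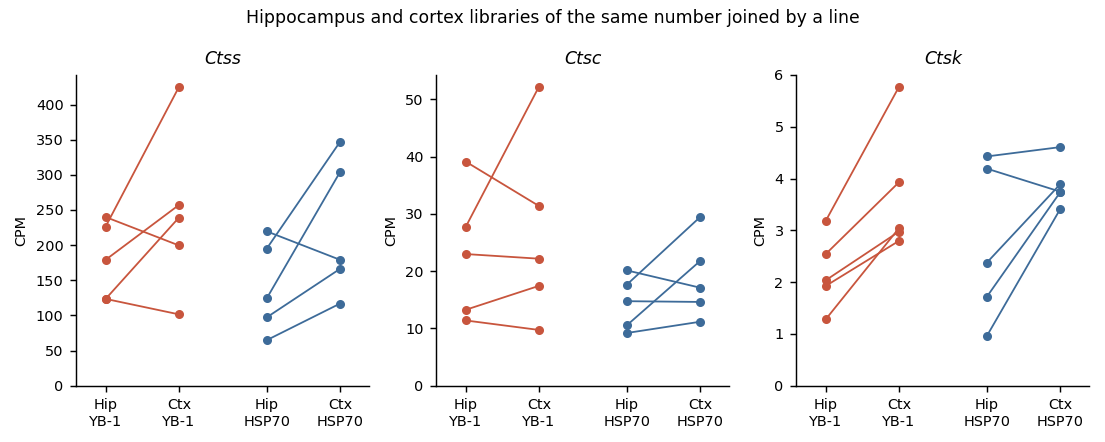
CPM of Ctss, Ctsc and Ctsk (vertical axes, from 0) in hippocampus and cortex, with libraries of the same number joined by a line, for YB-1 and HSP70. Most Ctss and Ctsk lines climb towards the cortex, and Ctss falls in 2 of 5 YB-1 pairs and 1 of 5 HSP70 pairs.

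Several lists of cell type markers were mostly lower in the hippocampus, as most cathepsins were. Of the 15 microglial markers, 14 were lower in the hippocampus under YB-1 (median -0.16) and 13 under HSP70 (-0.3), and 0 were called. Endothelial markers were lower in 5 of 5 (medians -0.29 under YB-1 and -0.36 under HSP70), blood leukocyte markers in 6 of 6 (-0.75 and -0.81) and neuronal markers in 6 of 7 (-0.22 and -0.29), of which 1 and 2 neuronal markers were called. Oligodendrocyte markers went the other way, 6 of 6 called higher in the hippocampus, with median log2 fold changes of 1.11 under YB-1 and 1.52 under HSP70. Choroid plexus markers, 6 of 6 tested, were higher too (medians 3.25 under YB-1 and 2.75 under HSP70, with 5 and 2 called). Meningeal fibroblast markers were mixed, with 4 of 6 lower under each treatment (medians -0.76 under YB-1 and -0.28 under HSP70). Of these markers 3 were called lower and 1 higher under YB-1, and 0 lower and 1 higher under HSP70. The part of these lists in the cathepsin values was not tested. Other lysosomal genes were called between tissues: under HSP70 the hydrolases Gaa, lysosomal α-glucosidase (637.2 ± 47.7 CPM in the hippocampus, 420.4 ± 61.1 in the cortex, adjusted p = 0.000891), and Sgsh, a heparan sulphate sulphamidase (12.5 ± 3.05 and 7.97 ± 1.01, adjusted p = 0.0257), rose, and Atp6v1e1 (286.9 ± 40.2 and 386 ± 56.9, adjusted p = 0.0469) fell in the hippocampus by edgeR. They were 2 of 28 hydrolases and 1 of 25 membrane and acidification genes. Of all genes, 8.61% were called under HSP70 and 6.51% under YB-1, so nothing is read from these counts. Under YB-1 0 of either list were called, Gaa being at 568.5 ± 45.7 CPM in the hippocampus and 439.9 ± 54.6 in the cortex (adjusted p = 0.0608).

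How the genes varied from mouse to mouse was compared with a microglial score, the mean log2 CPM of the 15 markers, which include no cathepsin. Both were taken as deviations from the treatment mean, over 10 libraries per tissue, 18 relations in all. The same relation is not given for all genes, so nothing particular to the cathepsins is read from it. In the hippocampus Ctss followed the score closely (Pearson's r = 0.922, permutation p = 0.00024, adjusted p = 0.00432, Spearman's rho = 0.867, adjusted p = 0.0461), and r was 0.912 without the 2 libraries farthest from the median score. Within the treatments it was 0.868 for YB-1 and 0.983 for HSP70. Hippocampal Ctsb gave r = 0.781 (permutation p = 0.00741, adjusted p = 0.0333, rho = 0.77, adjusted p = 0.0461), which fell to 0.556 without the 2 farthest libraries. Hippocampal Ctsk ran against the score (r = -0.871, permutation p = 0.00169, adjusted p = 0.0128, rho = -0.939, adjusted p = 0.0142), with -0.86 without the 2 farthest, though on few reads. Hippocampal Ctsc passed by rank (rho = 0.782, permutation adjusted p = 0.0461) but not by r (0.689, adjusted p = 0.0758). The Ctsb call was lost without HSP70 replicate 2 (adjusted permutation p = 0.0569), YB-1 replicate 1 (0.0887) or YB-1 replicate 4 (0.241), while those of Ctss and Ctsk held with any single library left out.

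In the cortex the relation that passed in both measures was that of Ctsh (r = 0.725, permutation p = 0.00213, adjusted p = 0.0128, rho = 0.794, adjusted p = 0.0461, and r = 0.818 without the 2 farthest libraries). Ctsb gave r = 0.839 (permutation p = 0.0112, adjusted p = 0.0403) but rho = 0.721 with an adjusted p of 0.119, and r = 0.663 without the 2 farthest. Cortical Ctss had r = 0.715, which did not pass (permutation p = 0.0378, adjusted p = 0.0758) and was 0.312 without the 2 farthest libraries, so it rested on them. Cortical Ctsc (r = 0.76, 0.285 without the 2 farthest) and Ctsd (0.701, 0.457) did not pass either, with permutation adjusted p of 0.0758 and 0.0627. After TMM scaling Ctsa gave values near 0, with r = 0.062 in the hippocampus and -0.0392 in the cortex, and Ctsf ran weakly against it at -0.516 and -0.323.

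Library properties varied along the same axis, and their part was not tested. The microglial score correlated with Bc1 at r = -0.782 in the hippocampus and -0.45 in the cortex, and with the total of assigned reads at 0.583 and 0.654, as descriptions over 10 libraries each. Ctss ran against Bc1 (-0.567 and -0.564) and followed the read total (0.757 in the hippocampus and 0.417 in the cortex). Ctsk ran against the read total (-0.772 and -0.621), and Ctsf followed Bc1 (0.767 and 0.811). Taken relative to neuronal markers of the same library, only hippocampal Ctss kept an adjusted permutation p under the threshold (r = 0.881, adjusted p = 0.0135). Ctsb and Ctsk in the hippocampus and Ctsb and Ctsh in the cortex did not. The same neuronal mean was subtracted from gene and score, and such a shared term can itself raise r, so the kept call is not a stricter check. With plain library totals in place of TMM, hippocampal Ctsk lost its call (r = -0.663, adjusted permutation p = 0.0669), and hippocampal Ctsa (r = 0.742, 0.0239) and Ctsc (0.754, 0.033) gained one. In the cortex Ctsc (0.857), Ctsd (0.841) and Ctss (0.823) gained one on that scale, each with an adjusted permutation p of 0.0224, and Ctsa stood at 0.621 (0.134). On that scale gene and score share the uncorrected composition of their library (TMM factors 0.862 to 1.156). This shared term can raise r as well, so nothing is read from the gained calls. Without C1qa, C1qb and C1qc in the score, the calls of hippocampal Ctsk (r = -0.784, adjusted permutation p = 0.0684), hippocampal Ctsb (0.644, 0.164) and cortical Ctsb (0.806, 0.0684) were lost. In the cortex 0 relations passed without YB-1 replicate 5 (Ctsh r = 0.685, adjusted permutation p = 0.113, Ctsb r = 0.646, 0.274). The cortical Ctsb call was also lost without HSP70 replicate 1, 3 or 5 or YB-1 replicate 1, 2, 3 or 4, with adjusted permutation p of 0.0618 to 0.092, while r stayed between 0.835 and 0.851.

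**Figure D4:**
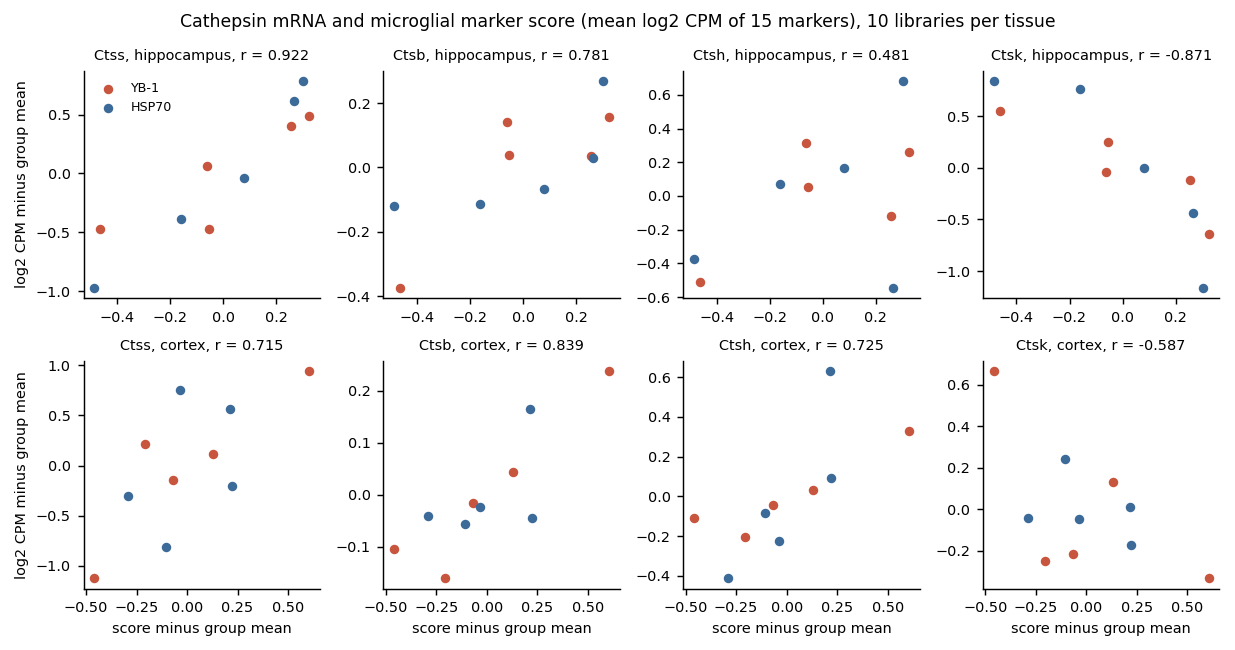
Log2 CPM of Ctss, Ctsb, Ctsh and Ctsk against the microglial marker score, each minus its group mean, for hippocampus (top) and cortex (bottom), 10 libraries per panel coloured by treatment. Hippocampal Ctss climbs with the score (r = 0.922) and Ctsk falls (r = -0.871), while cortical Ctss is scattered apart from its end points.

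Whether a high level in the cortex went with a high level in the hippocampus was asked for each gene. The 10 same-numbered pairs were taken as mice, with treatment means removed. Ctsc had the highest correlation (r = 0.725, permutation p = 0.0417, adjusted over the 9 relations p = 0.188, rho = 0.758 with adjusted p = 0.158, and r = 0.63 without the 2 mice farthest from the median). Ctss and Ctsk each gave r = 0.588 (permutation p = 0.0899 and 0.0142, adjusted p = 0.27 and 0.128). Ctsh (0.226), Ctsa (0.157), Ctsb (0.0609), Ctsl (-0.0333) and Ctsd (-0.283) lay below the median over 10627 genes, which was 0.265. None of the 9 passed after adjustment.

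Among themselves the genes formed no single block. Of the 36 pairs 22 were positive over the 20 libraries with group means removed, and the median r was 0.271, given as a description of libraries that share depth and Bc1 content. Ctss and Ctsc varied most alike (r = 0.787), followed by Ctsb with Ctsh (0.75), Ctsc (0.663) and Ctss (0.65). Ctsk ran against Ctss (-0.78), its neighbour on chromosome 3, and against Ctsb (-0.676) and Ctsc (-0.667). Ctsa and Ctsf followed each other (0.449) but not Ctss (-0.292 and -0.397), and Ctsd was nearest to Ctsh (0.559).

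**Figure D5:**
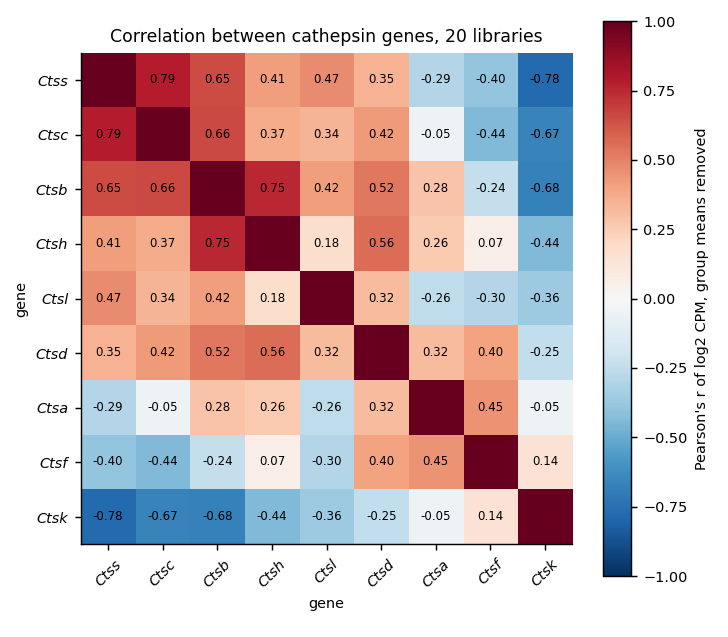
Pearson's r between cathepsin genes over the 20 libraries, log2 CPM with group means removed (colour and number in each cell). Ctss, Ctsc, Ctsb and Ctsh are positive with one another, from 0.369 to 0.787, and Ctsk is negative with all of them.

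The genes most like each cathepsin over the same 20 libraries, among those with a mean of at least 5 CPM, were these. For Ctss they were B2m (r = 0.939), Cd74 (0.929) and Aif1 (0.912), and for Ctsc C1qc (0.95), Cxcl13 (0.933) and H2-Oa (0.919). Ctsb had Tgfbr2 (0.913) and Atp6v0a2 (0.904) among its nearest. Ctsa was nearest to Tcn2 (0.923), Nucb1 (0.888) and Lrp10 (0.882), and Ctsf to Pex16 (0.946), Rac3 (0.943) and Ptpa (0.941). Likeness was lower for the rest: Ctsd had Lck (0.789), Col9a3 (0.77) and Ghdc (0.749), Ctsh had Oat (0.804), Pdgfb (0.784) and Lrp5 (0.776), and Ctsl had Ptma (0.812), Gusb (0.812) and C130074G19Rik (0.802). Ctsk had Mrps6 (0.874), Fam32a (0.864) and Ndufa1 (0.818).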

How the data were processed

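Single-end RNA-seq of poly(A) RNA (integrity number at least 8, directional kit, per the labels' protocols) gave 20 libraries. The authors deposited raw read counts, whole numbers for each Ensembl gene. Trimmomatic, STAR and featureCounts with GRCm39 were used per the submitters' processing notes, with no versions or strand setting stated there, so overlapping and antisense reads cannot be told apart. Entries that name no gene (reads outside genes 2.46% to 4.58%, ambiguous reads 4.12% to 4.58%) were left out. Symbols and lengths came from GENCODE M21. No libraries were duplicates.

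The main test was edgeR 4.0.16 under R 4.3.3 (TMM, filterByExpr, robust quasi-likelihood F-tests, two-sided, threshold 0.05), treatments within each tissue, tissues and interaction in a model of all groups. Log2 CPM used a prior count of 2, and correlations 100000 permutations within treatment, or 20000 for alternatives. Alternatives were DESeq2 1.42.0, limma-voom 3.58.1, other scalings, filters and thinning, a replicate block and leaving out each library. The model was tested on simulated data. A 1.5-fold change was recovered in 16.4% of changed genes between treatments in the hippocampus, 11.9% in the cortex and 0% for the interaction. For a 2-fold change the shares were 46.3%, 64.2% and 26.9%, and for a 4-fold change 87.9%, 92.4% and 80.3%. A missing call therefore does not show that a small change is absent.

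Same-numbered libraries of the tissues correlated in their deviations from group means over 14616 genes (0.198 to 0.624 for HSP70, 0.207 to 0.394 for YB-1). The own number was best in 5 of 5 for HSP70 and 4 of 5 for YB-1. The numbers were therefore taken to pair the tissues of a mouse, which the labels do not state. Hippocampal libraries numbered 1 also correlated at 0.496 between treatments, where the mice differ, so a shared number need not mean a shared mouse. Members, lists and tests were chosen with earlier results of these data known. Named genes are the 9 cathepsins, the genes of smallest p of each pathway list, with some left out, and the 3 most like each cathepsin, of which 1 is not reported here.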

Additional observations from a re-analysis of the deposited data

Results flagged for a closer look

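A library far from the other 4 of its group was found in 4 of 36 sets of values, 9 genes in 4 groups. The rule, a gap above 0.71 of the range, flags about 1 in 20 sets of independent normal values. The sets share libraries and the share over all genes is not given, so no excess is read from the count. Hippocampal YB-1 replicate 4 was low in Ctsb, at 585.2 CPM against 778 to 845.4 in the others. Cortical HSP70 replicate 3 was high in Ctsb, at 901.2 CPM against 772.6 to 790.2, and in Ctsd, at 550 CPM against 348 to 403.6. Hippocampal YB-1 replicate 2 was high in Ctsd, at 493.5 CPM against 384.5 to 403.1.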

How the results depend on the processing

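No cathepsin was called in any treatment comparison or interaction under the 8 alternatives or with any of the 20 libraries left out. Between tissues under HSP70 the count of called cathepsins was 1, Ctss, with the replicate block, where the mouse is the block, and 0 to 1 with each mouse left out of that fit, a check chosen after seeing the data. It was 0 under every other alternative run, and under YB-1 it was 0 throughout. No call changed direction, but 14 fold changes that were not called changed sign with a library left out and 5 under another alternative. Of all genes in the cortex, 0 were called between treatments, against 4 with DESeq2, 2 with limma-voom, 9 without a filter on low counts and 1 without HSP70 replicate 3. Between tissues under HSP70, 1259 genes were called, against 1777 with the replicate block and 2050 when YB-1 mouse 4 was left out of it.

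Relations to the microglial score past the threshold numbered 3 in the hippocampus and 2 in the cortex. The share of all genes past it is not given, so these counts show nothing particular to the cathepsins. They were 4 and 5 with plain library totals, 1 and 1 without C1qa, C1qb and C1qc in the score, and 1 and 0 relative to the neuron list. With single libraries left out they ran from 2 to 4 in the hippocampus and from 0 to 3 in the cortex. The cause was not tested.

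Between treatments the replicate numbers do not pair mice (hippocampal correlations -0.283 to 0.496, cortical -0.135 to 0.167, best with the own number in 1 and 2 of 5), and the replicate block left 0 genes called in either tissue. Ctsk, with 12 to 63 reads a library, is limited by depth.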
